A study of Mus musculus with 6 samples.

Results

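The genes described here encode the enzymes that make and remove reactive oxygen species: NADPH oxidases, the enzymes of glutathione and thioredoxin, and the antioxidant enzymes, with the transcription factor Nrf2 and its regulator Keap1. Their transcripts were measured with Affymetrix arrays in sorted cells of the ureteric bud, from embryonic mouse kidneys at E15.5. The bud is the branching epithelium from which the collecting ducts form. The members were chosen by gene symbol: symbols of the glutathione S-transferase, glutathione peroxidase and peroxiredoxin families and 22 single genes. The measured value used in that choice was the mean over all 6 arrays, by which 1 probe set was kept for a gene with several. Of 58 gene symbols that the rule takes in, 53 had a probe set of their own, among 19296 genes measured in all. Gsta1, Gsta2, Gstp2, Prdx5 and Prdx6 were not analysed here as members.

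The study compared 3 arrays of control cells with 3 arrays of Dicer mutant cells, all from kidneys of mixed strain background. Mutant cells had the genotype Dicerc/-; Hoxb7Cre; Rosa26YFP, in which the Hoxb7 promoter drives Cre in the ureteric bud and so removes a conditional copy of Dicer. The other copy is null in every cell. The Rosa26YFP reporter labels cells with Cre activity. Control cells are labelled as wild type only. Since YFP was also the sorting marker for them, the labels do not settle which of the 2 transgenes they carried, and effects of Cre and of the Dicer genotype cannot be told apart. Kidneys of both groups were treated with trypsin before the sort, and whether an array holds 1 embryo or a pool is not given, although the labels call the replicates biological. Dicer makes mature miRNAs from their precursors. In the mutant arrays Dicer1 itself was at 66.3% of its control signal, at 10.31 ± 0.06 in control and 9.72 ± 0.08 in mutant arrays (SD, n = 3 each, limma adjusted p = 0.000500). An exact two-sided permutation test gave p = 0.1, the smallest that 3 against 3 arrays allow. Which Dicer1 probes lie in the deleted part is not known, so this value checks the labels only in part.

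NADPH oxidases are membrane enzymes that pass electrons from NADPH to oxygen and so make superoxide or hydrogen peroxide. Superoxide dismutases turn superoxide into hydrogen peroxide, which catalase, glutathione peroxidases and peroxiredoxins remove. The peroxidases draw on reduced glutathione and the peroxiredoxins on thioredoxin. Glutathione S-transferases couple glutathione to reactive compounds. Nrf2, which is held low by Keap1 under resting conditions, drives many of these genes through a short promoter motif, the antioxidant response element. In the kidney, Nox4 is the oxidase best known from tubular epithelium.

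The arrays give RMA values in log2 units, on which a difference of 1 is a 2-fold change. The method is a background correction, quantile normalization and probe summary that puts all arrays on a common scale and compresses changes of dim probe sets. Differences are mutant minus control and were tested with limma, with p-values adjusted by Benjamini-Hochberg over all 19296 genes and a threshold of 0.05. Where 3 values are given, they are those of replicates 1, 2 and 3 in that order. The median of all probe sets was 7.51, and a gene is called bright or dim by its mean relative to it. The table has no detection call, so a dim gene is not known to be absent.

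The members differed between the groups in both directions, with one large rise, of Nox4, and many small falls. Of the 53 members, 6 rose in the mutant cells, 18 fell and 29 did not pass. These are 11.3% and 34.0% of the members, where 11.8% of all genes were higher and 13.9% were lower. In either direction 45.3% of members and 25.8% of all genes passed. The list was drawn up with earlier results of these arrays known, so nothing is read from the gap between these shares. Genes of brighter probe sets passed more often: 36 of the 53 members were bright, and 39.6% of all bright genes passed (19.3% higher and 20.3% lower) against 11.9% of dim ones. Of the 36 bright members, 6 rose and 15 fell. Of the 17 dim ones, 0 rose and 3 fell. The median log2 fold change of the members was -0.08, beside -0.05 over all genes. Centring each array on its own median gave 8 higher and 15 lower members.

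**Figure D1:**
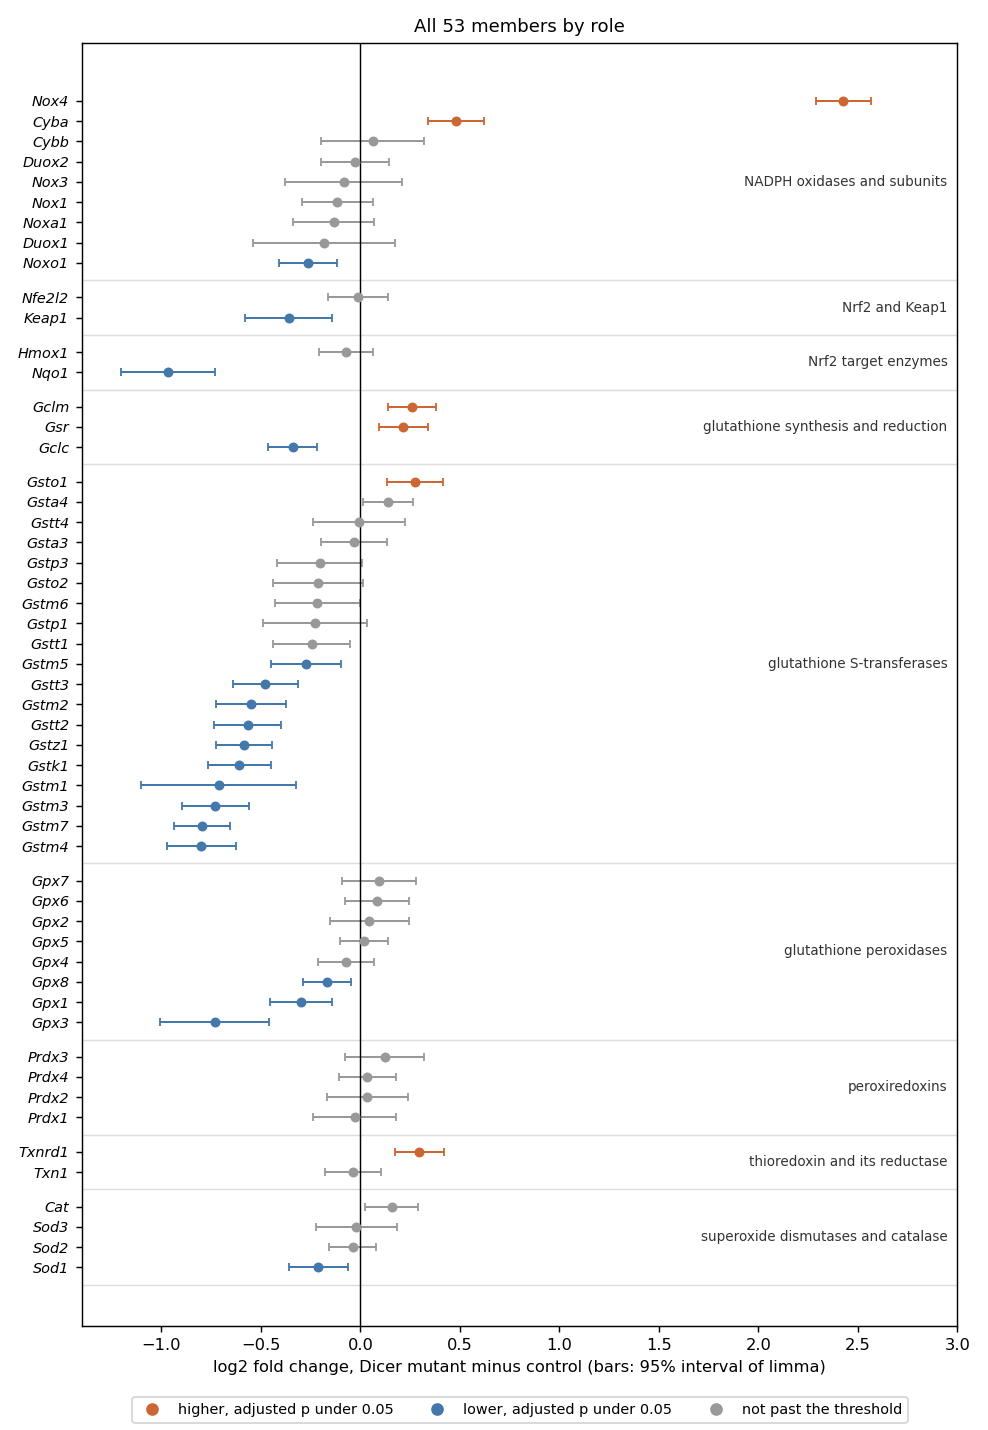
Log2 fold change of each of the 53 members, Dicer mutant minus control, with the 95% interval of limma (3 arrays per group), grouped by role. Orange points passed the threshold as higher, blue points as lower, and grey points did not pass. Nox4 lies at 2.43, while no other member lies beyond 1 in either direction, and most blue points belong to the glutathione S-transferases.

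The mutant and control arrays did not overlap for 31 members, 8 with all mutant arrays above and 23 with all below (15.1% and 43.4% of the members). Over all genes these shares were 18.3% and 24.1%, or 42.5% in either direction. Only Nox4 changed by at least 2-fold among the members, where 0.746% of all genes passed as higher by that much and 0.332% as lower. Of the 24 members that passed, 16 kept their call in each of the 14 alternatives with the same threshold in which they were scored, leaving out each array in turn included. Gstm3, 1 of the 16, was not scored where every probe set was fitted, and its second probe set did not pass. The other 8 (Gpx1, Gpx8, Gsr, Gstm1, Gstm5, Keap1, Noxo1 and Sod1) lost their call in at least 1 alternative. Losses with a single array left out are given beside each. Gpx8, Gsr, Gstm5, Noxo1 and Sod1 also lost it with the replicate number as a block. Gpx8, Gstm5 and Sod1 lost it with median centring and Sod1 with quantile normalization. Gpx8 lost it too under both other probe set rules.

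Nox4 rose more than any other member, and none of the other oxidase catalytic subunits passed the test. Nox4 makes mainly hydrogen peroxide and is active without cytosolic activators, so its amount is thought to set its output. It measured 7.53, 7.61 and 7.69 on the control arrays and 10.04, 10.04 and 10.03 on the mutant arrays. The mutant arrays lay close together, and all of them far above the highest control array. The rise was 5.37-fold, a log2 fold change of 2.43 with a standard error of 0.06 (adjusted p = 1.72e-06), and it was the 10th largest rise of all genes. In control cells its mean was just above the median of all probe sets.

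Cyba, which encodes the membrane subunit p22phox that Nox4 and other oxidases need for stability, rose by less. Its control arrays read 10.01, 10.09 and 10.001 and its mutant arrays 10.47, 10.60 and 10.48. The groups did not overlap, and the difference was 0.48 ± 0.06 (log2, standard error), or 1.4-fold (adjusted p = 0.00102).

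The catalytic subunits other than Nox4 were dim in both groups and their arrays overlapped. Nox1, the oxidase of colon epithelium, read 4.47, 4.72 and 4.61 in control and 4.54, 4.51 and 4.39 in mutant cells. Nox3, known from the inner ear, read 5.32, 4.81 and 4.95 in control and 4.93, 4.83 and 5.06 in mutant cells. Cybb, the catalytic subunit of the phagocyte oxidase, read 4.88, 4.76 and 4.57 in control and 4.59, 4.94 and 4.87 in mutant cells. Its difference was 0.06 (95% interval -0.20 to 0.32), and the intervals of Nox1 and Nox3 were -0.30 to 0.06 and -0.38 to 0.21, which all leave room for small changes. The dual oxidases, which serve hormone synthesis in the thyroid and defence in airway epithelium, gave 5.90, 6.26 and 5.67 in control and 5.85, 5.53 and 5.90 in mutant cells for Duox1. Duox2 gave 5.74, 5.68 and 5.79 in control and 5.66, 5.61 and 5.85 in mutant cells. No direction can be read from these 5 genes (adjusted p from 0.319 to 0.802).

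The activator Noxa1 and the organiser Noxo1 assemble with Nox1. Noxa1 read 6.39, 6.63 and 6.45 in control and 6.30, 6.50 and 6.28 in mutant cells, and these ranges overlapped. Noxo1, also dim, read 6.92, 6.91 and 6.91 in control and 6.56, 6.63 and 6.75 in mutant cells, with all mutant arrays lower and a difference of -0.26 ± 0.06 (adjusted p = 0.0181). The call for Noxo1 was lost without mutant replicate 1 (adjusted p = 0.0771) and without mutant replicate 2 (adjusted p = 0.0611), and over all its alternatives the adjusted p ran from 0.0158 to 0.0771.

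**Figure D2:**
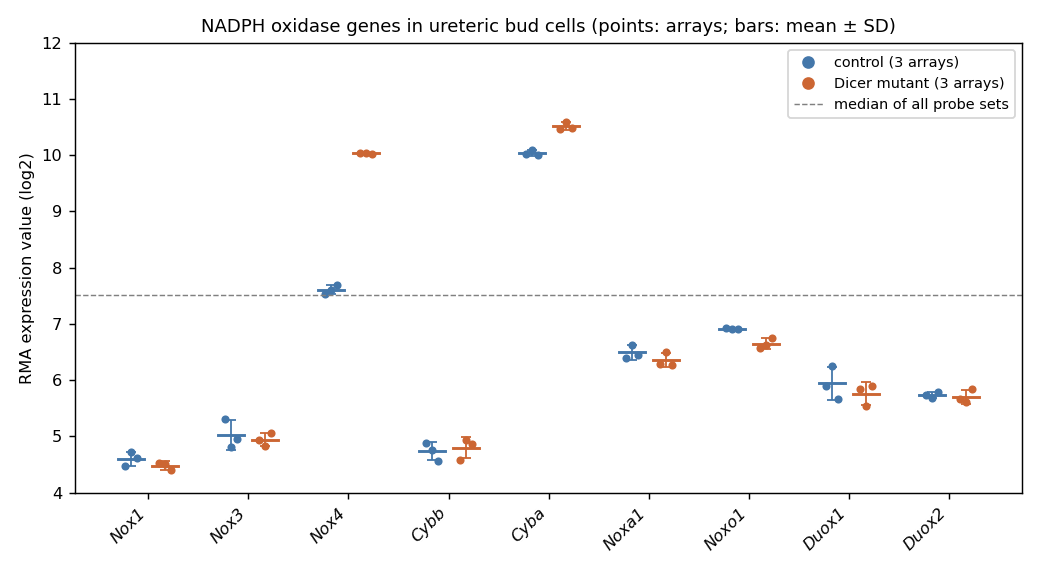
RMA expression values (log2) of the 9 NADPH oxidase genes on each array, with 3 control (blue) and 3 Dicer mutant (orange) points per gene, their mean and SD, and the median of all probe sets as a dashed line. Nox4 moves from a mean of 7.61 to 10.04 and Cyba from 10.04 to 10.52, while the other 7 genes lie below the dashed line in both groups.

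Among 14 measured partners of the oxidases outside the members, 2 rose and 3 fell. These are 14.3% and 21.4%, where 11.8% of all genes were higher and 13.9% were lower, and 8 of the 14 were bright. Sh3pxd2b and Sh3pxd2a, scaffolds that can organise NADPH oxidases at the membrane, rose by 0.53 and 0.45. Poldip2, which binds p22phox and raises Nox4 activity, fell by 0.32 on the log2 scale, from 10.95 ± 0.07 to 10.63 ± 0.02 (SD, n = 3 each). The small GTPase Rac3 had a difference of -0.45. Nrros, which lowers the amount of the phagocyte oxidase, was the other gene that fell, with a difference of -0.36. Rac1, which activates several oxidases but is not needed by Nox4, had a difference of -0.02 (adjusted p = 0.835). Nrros and Rac1 were named after their values were seen.

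Markers of other cell types were read beside these values, because a sorted population can hold other cells. In bulk samples fewer cells of a type and less RNA per cell cannot be told apart. All 13 macrophage and leukocyte markers were dim, with 0 higher, 1 lower and 12 not past the threshold, and their summed signal was 9.53 to 9.71 in control and 9.49 to 9.56 in mutant arrays (log2). Of 13 cap mesenchyme markers 5 were bright, with 2 higher, 3 lower and 8 not past the threshold. Their summed signal was 12.38 to 12.47 in control and 12.25 to 12.37 in mutant arrays. This sum is weighted to the brightest marker, Capn6, which fell from 11.93 to 11.23. Six2, a defining marker of the list, rose by 3.29, from 7.05 to 10.34. The sum therefore does not show whether the signal of cap mesenchyme cells as such rose or fell. Of 14 early nephron and proximal tubule markers 4 were bright, with 2 higher, 3 lower and 9 not past the threshold, and a summed signal of 12.004 to 12.12 in control and 12.10 to 12.19 in mutant arrays. Lrp2, the endocytic receptor megalin, rose by 1.05, and Slc34a1, the proximal phosphate transporter, fell by 0.69 on the log2 scale. The part of Six2-positive or tubular cells in the rise of Nox4 was not tested. Stromal markers (12 measured) gave 0 higher, 1 lower and 11 not past the threshold, endothelial markers (11 measured) 1 higher, 1 lower and 9 not past the threshold and erythroid markers (9 measured) 0 higher, 0 lower and 9 not past the threshold. Over all genes, 11.8% were higher and 13.9% lower.

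Nfe2l2, the gene of the transcription factor Nrf2, did not pass, while its regulator Keap1 was lower. Nfe2l2 read 11.21, 11.11 and 11.30 in control and 11.22, 11.16 and 11.20 in mutant cells, with overlapping arrays and a difference of -0.01 (95% interval -0.16 to 0.14). Keap1, the adaptor that brings Nrf2 to the Cul3 ubiquitin ligase for degradation, read 9.18, 8.94 and 8.87 in control and 8.60, 8.75 and 8.55 in mutant cells. All mutant arrays were below the control arrays, by 0.36 ± 0.09 on the log2 scale (adjusted p = 0.0252). The call was lost without control replicate 1 or 2 and without mutant replicate 1 or 3 (adjusted p of 0.0506 to 0.0858), and over all alternatives the adjusted p ran from 0.00482 to 0.0858. The array does not measure Nrf2 protein, at which Keap1 acts.

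Nqo1, the quinone reductase often used as a readout of Nrf2, fell more than any other member. It read 6.76, 6.75 and 7.09 on the control arrays and 5.82, 6.01 and 5.85 on the mutant arrays, so that the lowest control array was well above the highest mutant array. The fall was 0.97 ± 0.10 on the log2 scale, to 51.1% of the control signal (adjusted p = 0.000443). Nqo1 was dim in both groups, so the compression by RMA applies to it. Hmox1, heme oxygenase, which oxidants and heme induce, read 7.90, 7.75 and 7.79 in control and 7.72, 7.75 and 7.75 in mutant cells. The mutant arrays lay just below the lowest control array, and the difference of -0.07 did not pass (adjusted p = 0.405).

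Of 23 measured Nrf2 target enzymes outside the members, 5 rose and 5 fell, with 18 of the 23 bright and a median of -0.11. These are 21.7% in each direction, near the 19.3% higher and 20.3% lower among all bright genes. Cbr3, a carbonyl reductase, fell by 0.95 on the log2 scale, from 6.97 ± 0.18 to 6.02 ± 0.12 (SD, n = 3 each). Slc7a11, the cystine importer that supplies glutathione synthesis, fell by 0.64, and the biliverdin reductase Blvrb fell by 0.58 on that scale. Me1, the cytosolic malic enzyme that makes NADPH, rose by 0.70 (adjusted p = 0.00124). Of 16 partners and repressors of Nrf2, 13 of them bright, 3 rose and 2 fell (18.8% and 12.5%). Bach1, a repressor that competes with Nrf2 for its motif, rose by 0.67, and its relative Bach2 had a difference of -0.44. Dpp3, which binds Keap1, rose by 0.64, whereas Rbx1, the RING subunit of the ligase that Keap1 serves, fell by 0.37 on the log2 scale.

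Promoters of the members were searched for the core of the antioxidant response element, written TGACNNNGC, on both strands. The window was the 250 bases before the annotated start of each RefSeq promoter of the GRCm38.p6 build, and 47 of the 53 members had an entry. Gclc, Gsr, Gsta4, Gstt2, Hmox1 and Sod3 had none, so they were not searched. Of the 47, 8 held a match (17.02%), against 12.5% of the 15160 measured genes with an entry. Matches lay in 2 of 5 members that rose (Gclm and Txnrd1), 3 of 16 that fell (Gstm5, Gstm7 and Sod1) and 3 of 26 that did not pass (Gsta3, Nfe2l2 and Prdx1). A match to this core can overlap an AP-1 motif, is a description of the letters only, and says nothing of binding. No match says only that these letters are not in this window, as for Nqo1. Promoters of 2 members that rose and of 1 that fell are printed 5′ to 3′ with the match in capitals, and that of Nox4, the largest change, is printed for comparison with no match. Txnrd1 has 3 annotated starts, and the 1 with the match is shown.
Gclm (chr3:122245307-122245556, plus strand): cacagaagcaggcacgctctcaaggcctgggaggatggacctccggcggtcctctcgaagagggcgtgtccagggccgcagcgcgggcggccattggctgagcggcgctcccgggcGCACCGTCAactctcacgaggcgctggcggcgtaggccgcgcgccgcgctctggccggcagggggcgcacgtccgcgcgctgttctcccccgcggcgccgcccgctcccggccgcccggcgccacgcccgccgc
Txnrd1 (chr10:82858956-82859205, plus strand): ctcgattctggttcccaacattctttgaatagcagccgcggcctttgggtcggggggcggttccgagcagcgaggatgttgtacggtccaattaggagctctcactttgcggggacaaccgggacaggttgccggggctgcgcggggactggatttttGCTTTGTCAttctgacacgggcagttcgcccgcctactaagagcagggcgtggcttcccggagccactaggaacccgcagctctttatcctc
Gstm5 (chr3:107895604-107895853, plus strand): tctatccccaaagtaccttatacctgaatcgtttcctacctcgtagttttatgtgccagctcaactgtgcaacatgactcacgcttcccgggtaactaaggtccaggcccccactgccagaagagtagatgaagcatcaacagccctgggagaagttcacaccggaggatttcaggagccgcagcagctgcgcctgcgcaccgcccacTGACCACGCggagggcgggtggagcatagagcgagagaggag
Nox4 (chr7:87246399-87246648, plus strand): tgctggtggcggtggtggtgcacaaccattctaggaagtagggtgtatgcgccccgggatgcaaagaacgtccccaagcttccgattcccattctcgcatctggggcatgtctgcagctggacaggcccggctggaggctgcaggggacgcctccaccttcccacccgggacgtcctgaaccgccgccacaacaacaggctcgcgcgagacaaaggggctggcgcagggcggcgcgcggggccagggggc

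Gclc, Gclm and Gsr, the members that make or recycle glutathione, passed in different directions, while glutathione synthetase (Gss), which is no member and was named after its value was seen, had a difference of -0.15 and did not pass (adjusted p = 0.130). Gclc and Gclm are the catalytic and the modifier subunit of glutamate-cysteine ligase, the rate-limiting enzyme of glutathione synthesis. Gclc read 10.99, 10.999 and 10.91 in control and 10.62, 10.63 and 10.63 in mutant cells, with the mutant arrays tightly together below the control arrays, and fell to 79% of the control signal (adjusted p = 0.00282). Gclm went the other way, from 10.35, 10.32 and 10.34 to 10.59, 10.55 and 10.64. Its arrays did not overlap, and its difference was 0.26 ± 0.05 (log2, standard error, adjusted p = 0.00869). The promoter of Gclm is the first of those printed. Gsr, the reductase that restores oxidised glutathione with NADPH, read 11.18, 11.23 and 11.26 in control and 11.44, 11.40 and 11.47 in mutant cells. That rise was 1.16-fold (adjusted p = 0.0212). The call for Gsr was lost without control replicate 1 and without mutant replicate 1 or 3 (adjusted p of 0.0567 to 0.0762, and 0.00100 to 0.0762 over all alternatives).

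Of 23 measured genes of glutathione metabolism outside the members, 4 rose and 8 fell, with a median of -0.14 and 12 of the 23 bright. The shares are 17.4% higher and 34.8% lower, beside 11.8% and 13.9% of all genes and 19.3% and 20.3% of bright ones. Anpep, a membrane peptidase that splits the dipeptide left from glutathione breakdown, fell by 0.62 on the log2 scale, from 11.17 ± 0.01 to 10.55 ± 0.07 (SD, n = 3 each). Mgst1, a membrane-bound glutathione S-transferase, fell by 0.37, and the related Mgst2 and Mgst3, named after their values were seen, had differences of -0.31 and -0.26 and also passed. Abcc4, an exporter that can carry glutathione conjugates, rose by 0.36.

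The glutathione S-transferases were mostly lower in the mutant cells. Of 19 measured genes, 10 fell, 1 rose and 8 did not pass, and the median difference was -0.27 (log2). The lower genes are 52.6% of the 19, where 20.3% of bright and 13.9% of all genes were lower, and 14 of the 19 were bright. On 14 of the 19 (73.7%), all mutant arrays lay below all control arrays, as they did for 24.1% of all genes and 32.1% of bright ones. By class, which the letter after Gst in the symbol gives, 6 of 7 mu class and 2 of 4 theta class genes fell. The differences between classes were not tested.

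The mu class genes (Gstm) had a median log2 fold change of -0.71, and none of the 7 had a positive difference. Over all genes, 11912 of 19296 had a negative difference, as did 5048 of 9677 bright ones. Mu class enzymes detoxify electrophiles in the cytosol. Gstm7 read 8.998, 8.998 and 9.09 on the control arrays and 8.25, 8.29 and 8.15 on the mutant arrays, a fall of 0.80 ± 0.06 on the log2 scale (adjusted p = 0.000124). Gstm4 read 9.37, 9.60 and 9.53 in control and 8.64, 8.78 and 8.67 in mutant cells, a fall to 57.4% of its control signal (adjusted p = 0.000265). In both genes the gap between the groups exceeded the whole range within either group. Gstm3 was dim and read 7.08, 6.85 and 7.02 in control and 6.30, 6.25 and 6.20 in mutant cells (difference -0.73, adjusted p = 0.000356). Gstm2 read 10.44, 10.24 and 10.48 in control and 9.88, 9.87 and 9.77 in mutant cells (difference -0.55, adjusted p = 0.00158). Gstm2 and Gstm3 too had all mutant arrays below all control arrays. A second, dimmer probe set of Gstm3 gave -0.18 and did not pass, so its fall rests on the brighter one.

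Of the remaining mu class genes, Gstm1 and Gstm5 passed but not in every alternative, and Gstm6 did not pass. Gstm1 varied most within the groups, with 8.69, 8.28 and 8.80 in control and 8.11, 7.96 and 7.56 in mutant cells. The lowest control array, replicate 2, lay only a little above the highest mutant array. Its difference was -0.71 ± 0.17 (adjusted p = 0.0167), and the call was lost without control replicate 1 (adjusted p = 0.0530, and 0.00584 to 0.0530 over all alternatives). Gstm5 read 9.55, 9.72 and 9.82 in control and 9.40, 9.45 and 9.41 in mutant cells, so the mutant arrays lay below the lowest control array, replicate 1. Its difference of -0.27 (adjusted p = 0.0315) was called with control replicate 1 left out but not when any other single array was (adjusted p of 0.0686 to 0.101, and 0.00581 to 0.101 over all alternatives). Gstm6 was dim, at 4.65 ± 0.18 and 4.44 ± 0.04 (SD, n = 3 each). These genes are close paralogs, so a probe set of one can take up transcript of another. How far this ties their values together was not tested.

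**Figure D3:**
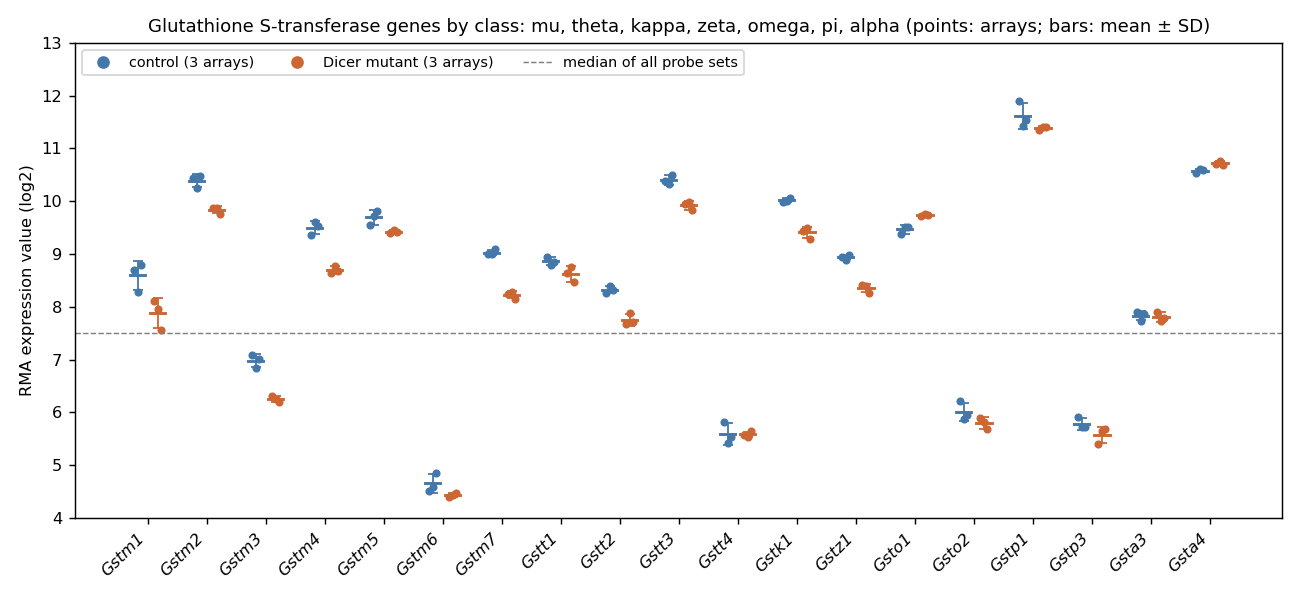
RMA expression values (log2) of the 19 glutathione S-transferase genes on each array, ordered by class, with 3 control (blue) and 3 Dicer mutant (orange) points per gene, their mean and SD, and the median of all probe sets as a dashed line. Mutant points lie below control points for each of the 7 mu class genes and for Gstk1 and Gstz1, while Gsto1 and Gsta4 lie higher in the mutant.

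All 7 mu class genes sit next to one another on chromosome 3, with no other measured gene between them in the RefSeq gene order. Of the 4 measured neighbours on each side, 1 was higher, 2 were lower and 5 did not pass. The nearest neighbour on one side, 4933431E20Rik, had a difference of -0.29, and Ahcyl1, the other lower neighbour, one of -0.27. On the other side Ampd2, an AMP deaminase, had a difference of 0.19. Each of the 5 mu class genes with a difference beyond -0.5, Gstm3 among them by its brighter probe set, exceeded all 8 neighbours in size. These neighbours were named by their position.

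The 4 theta class genes (Gstt) sit together on chromosome 10, and their differences ran from -0.57 to -0.0076. Gstt2 fell, from 8.26, 8.38 and 8.33 to 7.67, 7.88 and 7.71 (difference -0.57, adjusted p = 0.00107), as did Gstt3, from 10.38, 10.32 and 10.497 to 9.95, 9.98 and 9.83 (difference -0.48, adjusted p = 0.00207). In both, the groups were well apart. Gstt1 had all mutant arrays lower but did not pass (difference -0.24, adjusted p = 0.0686), and Gstt4 was dim with a difference of -0.0076. Of their 8 neighbours, 1 was higher, 3 were lower and 4 did not pass. Ddt, the adjacent gene of D-dopachrome tautomerase, fell by 0.97 on the log2 scale, from 9.37 ± 0.11 to 8.40 ± 0.14 (SD, n = 3 each), more than any of the 4 theta class genes. Mif, the related gene on the other side, had a difference of -0.0078 and did not pass.

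**Figure D4:**
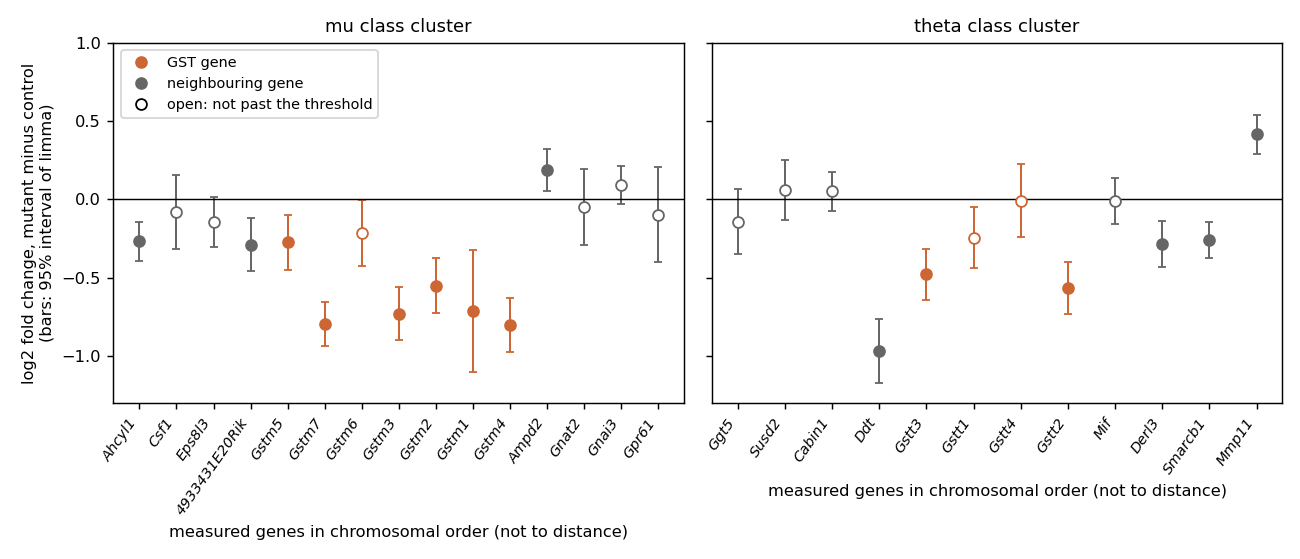
Log2 fold change, mutant minus control, with the 95% interval of limma, of the mu class genes (left) and the theta class genes (right) in orange and of 4 measured neighbours on each side in grey, in chromosomal order without distances. Open points did not pass the threshold. In the left panel 5 orange points lie below -0.5 and no grey point does. Gstm3, among the 5, is shown by its brighter probe set, while its dimmer one gave -0.18 and did not pass. In the right panel Ddt, a grey point, lies lowest at -0.97.

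Single members of other classes also changed. Gstk1, the kappa class enzyme of mitochondria and peroxisomes, read 9.99, 10.01 and 10.07 in control and 9.44, 9.498 and 9.29 in mutant cells (difference -0.61, adjusted p = 0.000581). Gstz1, the zeta class enzyme of tyrosine breakdown, read 8.94, 8.89 and 8.98 in control and 8.40, 8.39 and 8.26 in mutant cells (difference -0.59, adjusted p = 0.000423). Both fell with a clear gap between the groups. The exception to the falls was Gsto1, an omega class enzyme that reduces rather than conjugates, which read 9.37, 9.51 and 9.51 in control and 9.72, 9.76 and 9.74 in mutant cells. It rose 1.21-fold (adjusted p = 0.0123) with no overlap of arrays.

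Members of the alpha and pi classes did not pass. Gsta4, which conjugates aldehydes from lipid peroxidation, had all mutant arrays higher, at 10.58 ± 0.03 and 10.72 ± 0.04 (SD, n = 3 each, adjusted p = 0.102). Gstp1, the pi class enzyme widely found in epithelia, was at 11.62 ± 0.25 and 11.39 ± 0.03, and its control replicate 1 stood above the other control arrays. Gstp3, Gsto2 and Gsta3 differed by -0.20, -0.21 and -0.03. Probe sets shared by several symbols are no members. Those of Gstp1 with Gstp2 gave -0.26 and -0.09, and the 3 shared by Gsta1, Gsta2 and 2 gene models ranged from -0.41 to -0.16, and none of these 5 passed over all probe sets.

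In the same arrays most markers of the ureteric epithelium, though not all, were lower too. Of 18 measured markers, all bright, 1 rose, 10 fell and 7 did not pass. The shares are 5.56% higher and 55.6% lower, beside 19.3% and 20.3% of all bright genes. Wnt9b was the marker that rose, by 1.42 on the log2 scale, the largest change of the list. The median of the 18 was -0.23. Their summed signal was 15.91 to 15.93 in control and 15.69 to 15.74 in mutant arrays (log2). The part of this shift in the lower glutathione S-transferases was not tested.

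Glutathione peroxidases, which reduce peroxides with glutathione, fell in 3 of 8 measured genes and rose in 0. The lower share is 37.5%, where 13.9% of all genes and 20.3% of bright ones were lower, and 5 of the 8 were bright. Of the 3, only Gpx3 kept its call in every alternative. Gpx3, the secreted plasma enzyme for which the kidney is the main source, read 8.20, 8.32 and 8.66 in control and 7.74, 7.70 and 7.54 in mutant cells. Control replicate 3 was the highest array, yet all control arrays lay above all mutant arrays, and Gpx3 fell to 60.2% of the control signal (0.73 ± 0.12 on the log2 scale, adjusted p = 0.00310). Gpx1, the cytosolic selenoenzyme, read 10.99, 10.96 and 11.15 in control and 10.77, 10.69 and 10.75 in mutant cells. Its difference of -0.30 (adjusted p = 0.0139) was not called without mutant replicate 2 (adjusted p = 0.0540, and 0.000738 to 0.0540 over all alternatives). Gpx8, an enzyme of the endoplasmic reticulum, was at the threshold, at 10.81 ± 0.03 and 10.64 ± 0.03 (SD, n = 3 each, adjusted p = 0.04998). That call was lost with any single array left out (adjusted p of 0.0650 to 0.175, and 0.00701 to 0.175 over all alternatives).

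The other glutathione peroxidases did not pass. Gpx4, which reduces lipid peroxides in membranes and guards against ferroptosis, was at 10.995 ± 0.06 and 10.92 ± 0.06 (SD, n = 3 each, 95% interval of the difference -0.21 to 0.07). A second, dimmer probe set of Gpx4 gave -0.18 with a limma adjusted p of 0.0495 over all probe sets, just under the threshold. Gpx7, also of the endoplasmic reticulum, differed by 0.09. The gut enzyme Gpx2, the epididymal Gpx5 and Gpx6 of the olfactory epithelium were dim, with differences of 0.05, 0.02 and 0.08.

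No peroxiredoxin passed in either direction. These thiol enzymes reduce hydrogen peroxide and are restored by thioredoxin. Prdx1, of the cytosol, read 12.28, 12.40 and 12.58 in control and 12.42, 12.27 and 12.48 in mutant cells, and Prdx2, its close relative, 12.39, 12.68 and 12.58 in control and 12.70, 12.52 and 12.53 in mutant cells. The groups overlapped in both. The 2 probe sets of each disagreed in direction, at -0.03 and 0.04 for Prdx1 and at 0.03 and -0.06 for Prdx2. The mitochondrial Prdx3 and Prdx4 of the endoplasmic reticulum differed by 0.12 and 0.03, with 95% intervals of -0.08 to 0.32 and -0.11 to 0.18.

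Txnrd1, the selenoenzyme that restores thioredoxin, rose while thioredoxin itself did not pass. Txnrd1 read 9.96, 9.99 and 10.04 on the control arrays and 10.28, 10.28 and 10.33 on the mutant arrays. All mutant arrays were higher, and the rise was 1.23-fold (0.30 ± 0.05, log2, standard error, adjusted p = 0.00522). Its promoter is among those printed. Txn1 was at 13.32 ± 0.08 and 13.28 ± 0.04 (SD, n = 3 each, 95% interval of the difference -0.18 to 0.11).

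Around it, 4 of 21 measured genes of the thioredoxin and glutaredoxin system outside the members rose and 7 fell, with 19 of the 21 bright. That is 19% higher and 33.3% lower, beside 19.3% and 20.3% of all bright genes. Sesn2, a sestrin that supports peroxiredoxin repair and restrains mTOR signalling, rose 2.21-fold, from 8.93 ± 0.04 to 10.08 ± 0.13 (SD, n = 3 each). Its relative Sesn3 rose by 0.67, and Txndc12, a thioredoxin-like protein of the endoplasmic reticulum, by 0.53. Glrx2, the mitochondrial glutaredoxin, fell by 0.36 on the log2 scale. Of 25 genes of selenoprotein synthesis and other selenoproteins, 21 of them bright, 3 rose and 4 fell (12% and 16%). Lrp8, a receptor that takes up selenoprotein P, rose by 0.95, while the selenoproteins Selenoh and Selenoo had differences of -0.60 and -0.53 and Pstk, a kinase of selenocysteine synthesis, one of -0.40. Txnrd1 and Gpx1 to Gpx4 are selenoenzymes. Of these 5, Txnrd1 rose, Gpx1 and Gpx3 fell, and Gpx2 and, by its brighter probe set, Gpx4 did not pass. The call for Gpx1 was not kept in every alternative.

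Of the superoxide dismutases and catalase, only Sod1 passed. Sod1, the copper and zinc enzyme of the cytosol, was at 11.99 ± 0.07 in control and 11.78 ± 0.07 in mutant cells (SD, n = 3 each), a difference of -0.21 (adjusted p = 0.0442). The call was kept with control replicate 3 left out and lost with any other array left out (adjusted p of 0.0678 to 0.163), and over all alternatives the adjusted p ran from 0.00346 to 0.163. The mitochondrial Sod2 differed by -0.04 (95% interval -0.16 to 0.08), and Sod3, the extracellular enzyme, was dim and differed by -0.02. Cat, the catalase of peroxisomes, had all mutant arrays above all control arrays, at 11.44 ± 0.06 and 11.60 ± 0.03 (SD, n = 3 each), without passing (adjusted p = 0.0833).

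Partners of these enzymes were lower or did not pass. Of 18 measured genes of superoxide, peroxide and copper handling, 5 fell and 0 rose. The lower share is 27.8%, where 13.9% of all genes and 20.3% of bright ones were lower, and 11 of the 18 were bright. Atox1, a copper carrier of the cytosol, fell by 0.65 on the log2 scale, from 10.42 ± 0.03 to 9.78 ± 0.01 (SD, n = 3 each). Ccs, the chaperone that loads copper into Sod1, fell by 0.40, Park7, a redox-sensitive chaperone, by 0.37, and Dao, a peroxisomal oxidase that was dim, by 0.32 on that scale.

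**Figure D5:**
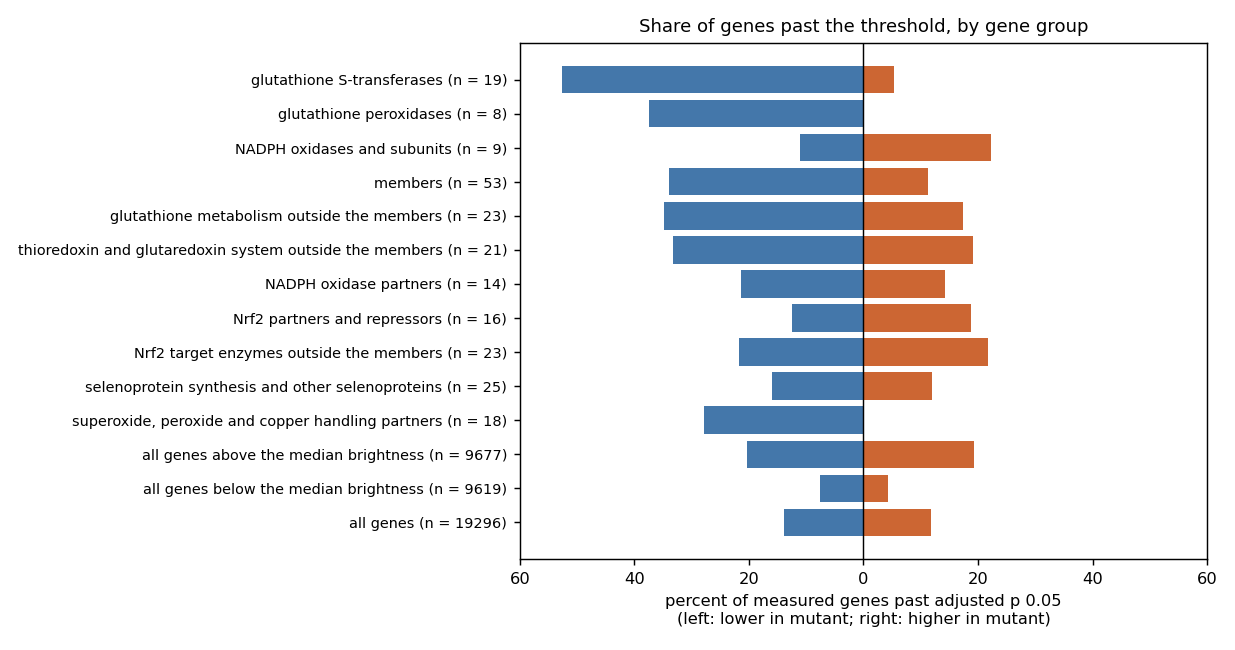
Percent of measured genes past an adjusted p of 0.05 (limma), lower in the mutant to the left and higher to the right, for groups of members, for the 7 lists of other pathway genes and for all genes, with the number of genes in parentheses. The lower share of the glutathione S-transferases reaches 52.6%, while all bright genes lie at 20.3% lower and 19.3% higher.

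Counted once each, 136 genes of the 7 pathway lists were measured outside the members, of which 19 rose and 33 fell, and 99 were bright. The shares are 14.0% higher and 24.3% lower, beside 11.8% and 13.9% of all genes and 19.3% and 20.3% of bright ones. Genes that respond to tissue dissociation were lower in the same arrays. Of 12 measured immediate early and stress genes, 8 were lower (66.7%, beside 20.3% of all bright genes) and 0 higher, with a median of -0.44. Their summed signal was 14.52 to 14.83 in control and 14.32 to 14.34 in mutant arrays (log2), all 12 were bright, and the part of this difference in the antioxidant genes was not tested.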

How the data were processed

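RNA of sorted ureteric bud cells was hybridised to 6 arrays, 3 per group. The deposited values are log2 expression values, made by the authors with RMA and the affy package per the submitters' processing notes. Tool versions, the genome build and filters were not given in the sources used here. Values ran from 2.26 to 14.11. Of 23309 probe sets, the platform annotation gives 1 symbol for 20728, several for 1174 and no entry for 1407, which stay unnamed here. For each gene the probe set with the highest mean over the 6 arrays was kept. Sh3pxd2a, Me1 and Rbx1, named among the other pathway genes, also have a dimmer probe set, whose change is not given here. All 53 members matched RefSeq (GRCm38.p6) by gene ID. No filter on brightness was applied.

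The members and lists were chosen with earlier results of these data known. A linear model with genotype as its term was fitted to all 19296 genes (limma 3.58.1 in R 4.3.3, empirical Bayes variances with 3.93 prior degrees of freedom, two-sided) and was tested on simulated data. There, 12% of planted log2 changes of 0.25, 72% of those of 0.5 and 92% of those of 1 were recovered. Each size had 50 planted changes, far fewer than the genes called here, so these shares need not hold for the arrays. The arrays were not duplicates of one another, with at most 22 identical values in a pair. The labels call the replicates biological but do not name animals or litters, so a p-value reflects the spread among these arrays, whose number limits the precision. The rule for named genes took values on every array for the oxidases, for the 20 members of smallest p, for Nrf2, Keap1 and their main targets, and for genes whose probe sets disagree. From each other list it took at most 4 genes past the threshold, in order of p. Alternatives changed the scaling (quantile or median), the probe set rule, the variance model, array weights and the threshold, dropped dim genes or single arrays, or added the replicate number as a block. Figures used matplotlib 3.10.9.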

Additional observations from a re-analysis of the deposited data

How the results depend on the processing

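None of the 24 members that passed changed direction under any of the 16 alternatives. Members near 0 that did not pass did change sign under some, among them Duox2, Gsta3, Gstt4, Nfe2l2, Prdx1 and Sod3 under median centring. Of the 24, 16 kept their call in the 14 alternatives with the same threshold, although Nqo1 and Gstm3 among them were not fitted where dim genes were left out. Gstm3 was also not scored where every probe set was fitted, as it has a second probe set, which did not pass. The counts of 6 higher and 18 lower members ran from 5 to 6 and from 13 to 16 with each array left out. For the glutathione S-transferases the lower count of 10 ran from 9 to 10, and for the mu class the count of 6 was 5 throughout. An adjusted p of 0.01 left 11 lower members, 1367 higher and 1423 lower genes. A minimum of 1.5-fold left 1 higher and 8 lower members, 6 lower glutathione S-transferases, and 553 higher and 408 lower genes. Leaving out each array gave 1635 to 2157 higher and 1764 to 2973 lower genes, against 2285 and 2690, with 1764 without mutant replicate 1. With the replicate number as a block, 5 higher and 14 lower members passed, and 1725 higher and 1878 lower genes. Deviations of same-numbered arrays correlated at -0.19, -0.10 and -0.22. Deviations from a mean of 3 arrays are tied to one another, so these values cannot decide whether equal numbers mark paired samples. Cat, Gsta4 and Gstt1 did not pass but were called under some alternatives, all 3 of them with a variance trend and with dim genes left out. Centring moved the median of all genes from -0.05 to -0.02. For dim members such as Nqo1, Noxo1 and Gstm3 the signal over background is not given.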
